A study of Mus musculus with 12 samples.

Results

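The genes described here are those of the BCL2 family and the caspases, with the main proteins that carry a death signal between them, measured in whole hearts of mice at postnatal day 8. They were found by symbol in the platform annotation: symbols that start with Bcl2, caspases by number, and a fixed set of named partners (Bak1, Bok, Bid, Bad, Bik, Bmf, Bbc3, Pmaip1, Hrk, Mcl1, Apaf1, Cflar, Xiap, Birc2, Birc3, Diablo, Endog, Aifm1, Fas and others). This gave 39 probes for 35 genes, of 26423 probes and 17742 named genes in all. Where a gene had several probes, the one with the highest mean deposited intensity over the 12 arrays stands for it. Bax, Cycs and the Bcl2a1 genes are not analysed here.

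The mice were of the C57bl/6 X 129 hybrid background in both groups. The study compared 2 samples labelled Salv CKO, a conditional mutant of Salvador (Sav1), with 2 labelled Control, which the labels give as wild-type. Each sample was hybridised with Cy5 dye to 3 arrays, which are technical repeats of 1 sample, so n = 2 in each group. The sources used here do not give the Cre driver, the deleted part of Sav1 or the number of hearts in a sample. Salvador is a scaffold of the Hippo kinases, which hold back the co-activators Yap1 and Taz, and the comparison asked which genes respond to its loss in the neonatal heart.

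Apoptosis through mitochondria is set by a balance within the BCL2 family. Anti-apoptotic members (Bcl2, Bcl2l1, Bcl2l2, Mcl1) bind and restrain the pore-forming effectors Bax and Bak1, and BH3-only members such as Bcl2l11 (BIM), Bbc3 (PUMA) and Pmaip1 (NOXA) release or activate the effectors. Open pores let cytochrome c and Diablo out of the mitochondrion, Apaf1 then assembles the apoptosome on which Casp9 is activated, and executioner caspases cut the cell's proteins. Death receptors such as Fas reach the same executioners through Casp8. Heart muscle cells lose part of this machinery, Apaf1 included, as they mature after birth.

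Values are levels, log2(intensity + 1) after quantile normalization, unless deposited intensities are named. A difference is Salv CKO minus control on that scale, given ± its standard error (SE) from limma. Sav1 itself did not follow the labels: it stood at 8.06 in Salv CKO 1 and 8.52 in Salv CKO 2, beside 8.75 in Control 1 and 8.08 in Control 2. Every direction below is therefore a direction of the labels. Of the cardiomyocyte markers, 6 of 11 were measured, all at levels above 14, and Nppa, Actc1, Tnnt2, Tnni3, Pln and Atp2a2 differed by no more than 0.15 between groups. The medians of the arrays ran from 58 to 88 before normalization, and 7 members whose normalized intensity averaged under 30 (Bcl2l10, Pmaip1, Hrk, Bad, Bcl2l14, Casp12 and Casp14) are called dim. Because these are whole hearts, fewer cells of a type and less RNA per cell cannot be told apart. The summed normalized intensity of the 5 of 5 lung airway markers measured was 2587 and 433 in Salv CKO 1 and 2. It was 513 and 5716 in Control 1 and 2. The sum followed Scgb3a2 (10.61 and 3.29 against 4.02 and 11.55) and Scgb1a1 (8.14 and 4.07 against 3.68 and 11.19), while Foxj1 was highest in Control 1 at 8.82. The part of such tissue in the values below was not tested.

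By limma, 0 of the 35 members passed a threshold of 0.05 on the p adjusted over all 26423 probes (the smallest was 0.998), and 0% of all probes did. At an unadjusted p under 0.05 there was 1 member of 35, or 2.86%, against 3.97% of all probes. Both samples of one group lay beyond both of the other for 13 members, or 37.1%, against 30.6% of all probes. Of these 13, 5 were higher in Salv CKO (14.8% of all probes were) and 8 were lower (15.8% of all probes were). Among the 28 members that were not dim, 10 did so (35.7%), against 29.2% of probes that were not dim. These shares lie near the background. With 2 samples a group, an exact permutation test of a single gene cannot give a p below 0.333.

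In 4 members all 6 arrays of the Salv CKO samples lay on one side of all 6 control arrays: Bcl2l1 above, and Bak1, Casp1 and Fas below. That was 14.3% of the members that were not dim, against 7.67% of probes that were not dim (5.05% of all probes). Arrays of 1 sample are not independent, so this count carries no test.

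The promoters of these 4 genes are shown because they are the members in which every array followed the labels. Each is the 250 bases before the transcription start, from RefSeq (GRCm38.p6), 5′ to 3′. For Bcl2l1 they are chr2:152831729-152831978 on the minus strand, and this is the most upstream of its 3 starts. For Bak1 they are chr17:27028628-27028877 on the minus strand, for Casp1 chr9:5298267-5298516 on the plus strand, and for Fas chr19:34290409-34290658 on the plus strand. Capitals mark GGAATG or its reverse complement CATTCC, the core recognised by the TEAD factors through which Yap1 acts.
Bcl2l1: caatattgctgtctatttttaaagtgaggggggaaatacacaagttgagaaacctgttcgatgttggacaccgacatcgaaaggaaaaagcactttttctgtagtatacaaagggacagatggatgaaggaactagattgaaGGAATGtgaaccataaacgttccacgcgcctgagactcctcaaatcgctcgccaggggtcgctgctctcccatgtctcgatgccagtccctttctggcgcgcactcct
Bak1: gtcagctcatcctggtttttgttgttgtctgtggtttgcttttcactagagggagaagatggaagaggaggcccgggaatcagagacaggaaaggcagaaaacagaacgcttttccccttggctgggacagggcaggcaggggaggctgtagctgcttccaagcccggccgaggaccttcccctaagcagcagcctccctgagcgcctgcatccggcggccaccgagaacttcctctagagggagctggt
Casp1: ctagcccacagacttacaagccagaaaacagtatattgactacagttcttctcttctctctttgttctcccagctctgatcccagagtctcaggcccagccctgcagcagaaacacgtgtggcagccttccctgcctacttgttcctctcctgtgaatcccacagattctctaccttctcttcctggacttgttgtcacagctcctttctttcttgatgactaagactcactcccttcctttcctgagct
Fas: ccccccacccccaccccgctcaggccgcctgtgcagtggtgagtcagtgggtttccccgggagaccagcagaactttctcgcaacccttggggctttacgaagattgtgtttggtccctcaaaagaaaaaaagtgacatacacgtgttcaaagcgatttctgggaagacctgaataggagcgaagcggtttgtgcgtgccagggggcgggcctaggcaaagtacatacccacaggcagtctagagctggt
The Bcl2l1 window held 1 match, GGAATG, 108 bases before the start, and the windows at its other 2 starts held none. The windows of Bak1, Casp1 and Fas held none. Promoters were found for 32 of the 35 members. Of these genes, 5 held the motif in at least 1 window (Bcl2l1, Bcl2l14, Casp14, Hrk and Mcl1), or 15.6%, against 14.4% of all 27025 genes in the table. Such a match is a description of the letters and no evidence of binding.

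**Figure D1:**
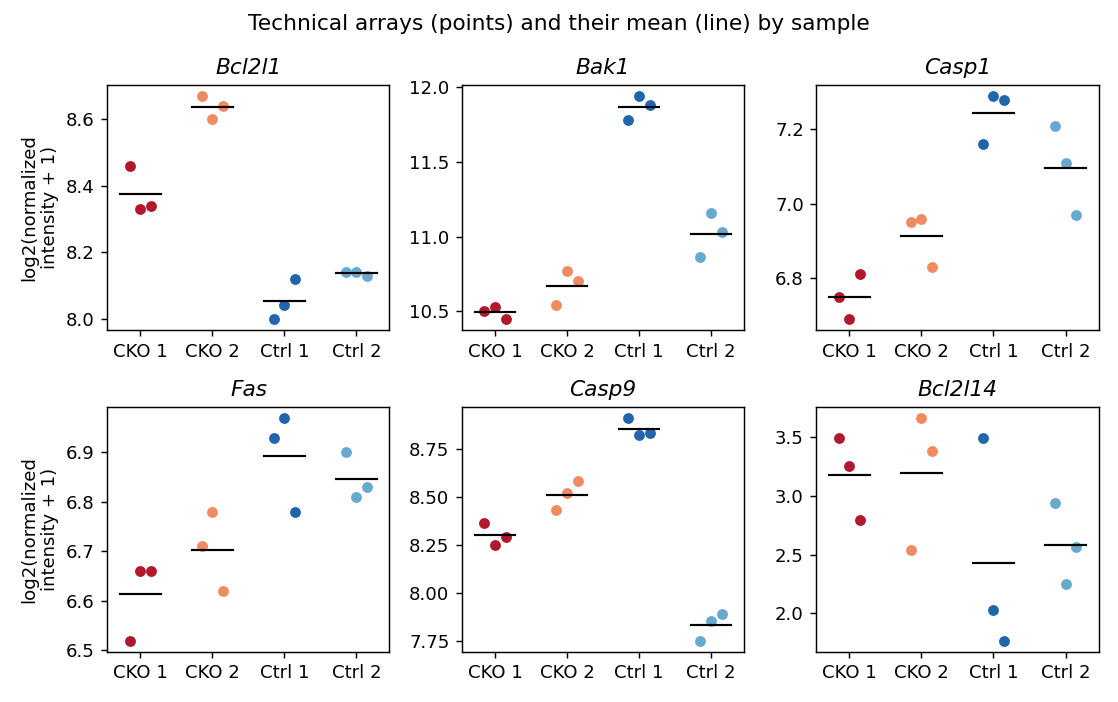
Level of 6 members on each of the 12 arrays, log2(normalized intensity + 1). Points are the 3 technical arrays of a sample and lines their mean; axes differ between panels. Bak1 reaches 11.87 in Control 1 and stays between 10.49 and 11.02 in the other samples; the technical arrays of Bcl2l14 scatter widely.

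Among the anti-apoptotic members, Bcl2l1, which encodes BCL-XL, had the largest difference. Its level was 8.38 and 8.63 in Salv CKO 1 and 2 and 8.05 and 8.14 in Control 1 and 2. Both Salv CKO samples were above both controls, and Salv CKO 2 was the highest. The difference was 0.41 ± 0.22 (SE, n = 2 in each group), a fold of 1.33, and it did not pass (limma adjusted p = 0.998, unadjusted p = 0.128, 95% interval -0.17 to 1.00). Deposited intensities averaged 297 and 469 against 264 and 261. The difference was 0.28 without Salv CKO 2 and 0.54 without Salv CKO 1, and it kept its sign without each sample.

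Mcl1, the short-lived anti-apoptotic protein that the adult heart needs, had levels of 13.54 and 13.43 in the Salv CKO samples and 13.69 and 13.44 in the controls. The groups overlapped, and the difference was -0.08 ± 0.22 (limma adjusted p = 0.998), with an interval of -0.67 to 0.51. Bcl2l2, which encodes BCL-W, spanned only 0.11 over the 4 samples. Its levels were 10.36 and 10.39 against 10.46 and 10.47, the smallest range of any member, and the difference was -0.09 ± 0.20.

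Bcl2, the founding member of the family, differed more within each group than between the groups. Its level was 7.40 and 7.68 in the Salv CKO samples and 7.31 and 7.82 in the controls, so both the lowest and the highest sample were controls. The difference was -0.02 ± 0.28. A dimmer Bcl2 probe differed by 0.41 ± 0.40, with Control 1 at 5.43 and the other samples from 6.36 to 6.47. The 2 probes thus disagreed in sign, and the arrays of that second probe scattered with a technical SD of 1.00. Bcl2l10 was dim, at deposited intensities from 6.33 to 9.0.

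Of the effectors, Bak1, which opens the outer mitochondrial membrane, had the largest difference of any member. Its level was 10.49 and 10.67 in Salv CKO 1 and 2, 11.02 in Control 2 and 11.87 in Control 1. All Salv CKO arrays (10.45 to 10.77) were below all control arrays (10.86 to 11.94), but Control 1 stood well above Control 2. The difference was -0.86 ± 0.35 (SE, n = 2 in each group), a fold of 0.551, and did not pass (limma adjusted p = 0.998, unadjusted p = 0.0621, 95% interval -1.79 to 0.07). Of the probes that were not dim, 2.40% had a difference at least as large, beside 15% for Bcl2l1 and 14.7% for Bmf. Bak1 was singled out as the largest of 28 such members, so its share is a description. Without Control 1 the Bak1 difference was -0.44, and without Control 2 it was -1.28. On the deposited scale, which is not normalized between arrays, Bak1 averaged 1200 and 1930 in the Salv CKO samples and 4030 and 1880 in the controls, so Salv CKO 2 and Control 2 were close there.

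Bok, an effector relative of Bax and Bak1, was also highest in Control 1. Its level there was 9.40, against 8.74 in Control 2 and 8.65 and 8.86 in the Salv CKO samples, and the groups overlapped. The difference of -0.32 ± 0.31 became 0.01 without Control 1. Such a peak is common, as Control 1 was the highest sample for 38.9% of probes that were not dim. The summed normalized intensity of the 7 of 8 neutrophil markers measured was 1231 in Control 1 and 575 to 782 in the other samples. That of the 7 of 7 adipocyte markers was 23768 against 13748 to 18640. The sums of the endothelial markers (19387 against 15869 to 19090) and skeletal muscle markers (18573 against 16455 to 17562) were also highest in Control 1, and those of the other lists were not. The neutrophil sum followed S100a9 (9.68 in Control 1, 8.14 to 8.84 elsewhere) and Camp (7.91, and 6.74 to 7.18 elsewhere), while Ngp (5.56) and the dim S100a8 (2.87) were lowest in Control 1 and Mpo (6.23) was within the range of the others. The part of these cells in either difference was not tested.

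The BH3-only genes shared no direction: a positive difference was seen in 3 of 8, with a median of -0.03, and in limma 0 of 8 passed at an adjusted or unadjusted p of 0.05. Bmf, a BH3-only protein tied to the cytoskeleton, had levels of 9.11 and 8.54 in the Salv CKO samples against 8.46 and 8.36. The groups did not overlap, but only Salv CKO 1 stood clear of the controls. The difference was 0.42 ± 0.28 (limma adjusted p = 0.998), and 0.13 without Salv CKO 1. Bcl2l11, which encodes BIM, had levels of 10.03 and 10.15 against 9.94 and 9.97, a difference of 0.14 ± 0.21.

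The p53 target Bbc3 varied most of the members that were not dim apart from Bak1. It stood at 7.81 in Control 1 but 6.62 in Control 2, with the Salv CKO samples between them at 6.69 and 7.12. The difference was -0.31 ± 0.46; without Control 1 it was 0.29, so its sign rested on that sample. Bik, another BH3-only gene, had the same order, from 9.81 in Control 1 to 9.14 in Control 2, with 9.36 and 9.54 between them, and differed by -0.03. Bid, which links Casp8 to mitochondria, was lowest in Salv CKO 1 at 7.26, against 7.94 in Salv CKO 2 and 8.15 and 7.71 in the controls. Its difference of -0.33 ± 0.34 was 0.01 without Salv CKO 1.

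The other BH3-only genes were dim. Pmaip1, another p53 target, had levels of 3.88 and 4.04 against 3.36 and 3.56, at deposited intensities of 17.7 and 16.7 against 9.0 and 9.67. Its difference of 0.49 ± 0.22 (limma adjusted p = 0.998, unadjusted p = 0.0798) was 0.25 at a pseudocount of 16. Single arrays of a sample scattered with a technical SD of 0.556, and the arrays of the groups overlapped. Hrk had deposited intensities from 3.00 to 5.00. Bad was at or below 1.67 in all samples, so its probe gave no reading above background.

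**Figure D2:**
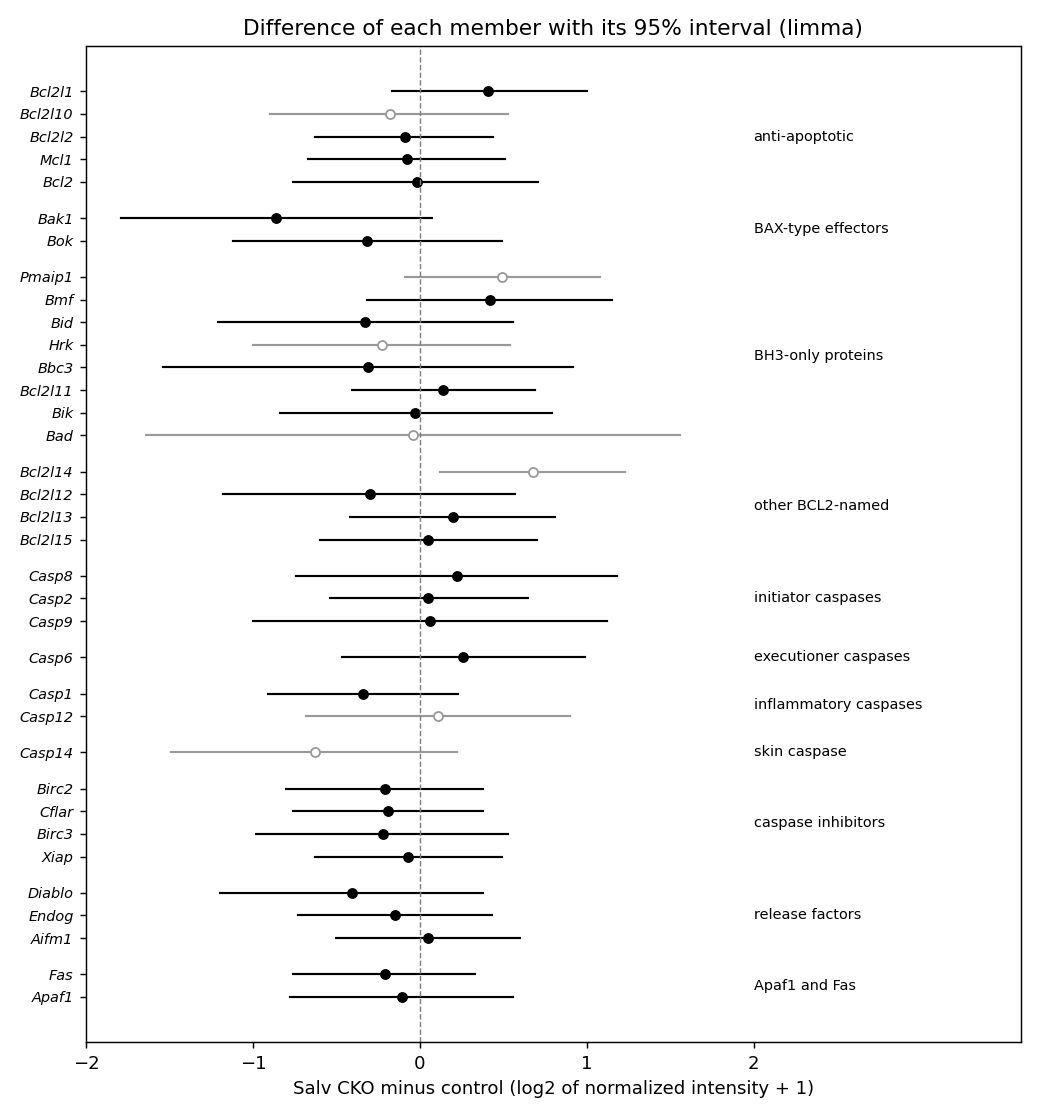
Difference of each of the 35 members, Salv CKO minus control (log2), with its 95% interval from limma, grouped by role. Open grey circles are dim members. Only the interval of the dim gene Bcl2l14 leaves out 0; those of the other members, Bak1 included (-1.79 to 0.07), hold it.

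Among the other BCL2-named genes, Bcl2l14 alone had an unadjusted p under 0.05. By limma its unadjusted p was 0.0261 and its adjusted p was 0.998. It was dim. Deposited intensities were 11, 10 and 6 on the arrays of Salv CKO 1 and 5, 11 and 12 on those of Salv CKO 2, against 11, 3 and 2 in Control 1 and 6, 3 and 5 in Control 2. The single arrays overlapped, and the difference of 0.68 ± 0.21 was 0.21 at a pseudocount of 16 (unadjusted p = 0.154). In a fit of all 12 arrays with a random sample effect, which counts the scatter between arrays, the unadjusted p was 0.298.

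Bcl2l13, a mitochondrial receptor for mitophagy, had levels of 9.70 and 9.57 against 9.28 and 9.60, and differed by 0.20 ± 0.23. Control 1 alone was low. Bcl2l12 showed the reverse: 10.34 in Control 1 against 9.55 in Control 2 and 9.64 in each Salv CKO sample. Its difference of -0.30 ± 0.33 was 0.09 without Control 1. Bcl2l15, at a mean intensity of 37, differed by 0.05 ± 0.24, and its other probe was dim.

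The initiator caspases had positive differences, 3 of 3 (48.6% of all probes were positive), all smaller than their standard errors. Casp8, the initiator of the death receptor route, had levels of 8.54 and 8.36 in the Salv CKO samples, 7.78 in Control 1 and 8.68 in Control 2. Casp9, the initiator bound by Apaf1, ran the other way in the controls, at 8.85 in Control 1 and 7.83 in Control 2, with 8.30 and 8.51 in the Salv CKO samples. The 3 arrays of each sample were close for Casp9 (technical SD 0.0639), so the gap of the controls was between samples and not between arrays. The differences were 0.22 ± 0.36 for Casp8 and 0.06 ± 0.40 for Casp9. Without Control 1 they were -0.23 and 0.58, and without Control 2 they were 0.67 and -0.45, so the sign of each rested on a control.

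Casp2, an initiator linked to cell division errors, was more even, at 10.50 and 10.47 against 10.58 and 10.28, and differed by 0.05 ± 0.23. With median centring of the arrays in place of quantile normalization, Casp2 and Casp9 differed by -0.13 and -0.06. Casp6, an executioner caspase, had levels of 9.17 and 9.28 against 9.24 and 8.69. Control 2 alone was low, and the difference of 0.26 ± 0.28 was -0.01 without Control 2. Control 2 was the lowest sample for 7 of the 28 members that were not dim (25%, against 23.7% of probes that were not dim). These were Casp6, Casp9, Casp2, Bik, Bbc3, Bmf and Bcl2l12, so the share was near the background. The 3 of 7 erythroid markers measured (Alas2, Slc4a1 and the dim Epb42) were also lowest there. Their summed normalized intensity was 5251 in Control 2, against 10968 in Control 1 and 9067 and 13622 in the Salv CKO samples. The part of erythroid cells in these values was not tested.

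Casp1, the protease that matures interleukin-1 beta in inflammasomes, was lower in both Salv CKO samples. Its level was 6.75 and 6.92 against 7.24 and 7.10, and the arrays of the groups did not overlap (up to 6.96 and from 6.97). The difference was -0.34 ± 0.22, a fold of 0.792, and did not pass (limma adjusted p = 0.998, unadjusted p = 0.185, 95% interval -0.91 to 0.23). Without normalization it was -0.18. Casp1 is expressed in macrophages, of whose markers 8 of 9 were measured. Their summed intensity was 7818 and 8132 in the Salv CKO samples and 7125 and 8380 in the controls, and no macrophage marker was dim. Single markers differed by -0.96 (Mrc1) to 0.52 (Cd68), 4 of 8 with a positive difference. The part of macrophages in the Casp1 value was not tested. Casp12 gave no reading above background, with deposited means of at most 1.33. Casp14, a caspase of skin, was dim at 4.67 to 9.33, and its difference of -0.63 ± 0.32 was -0.20 at a pseudocount of 16.

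All 4 caspase inhibitors had negative differences, none past the threshold (limma smallest unadjusted p = 0.403). Of all probes, 48.6% had a positive difference. Birc2, an IAP protein that ubiquitinates Ripk1, had levels of 11.16 and 11.21 against 11.53 and 11.25. Cflar, the FLIP protein that blocks Casp8 at death receptors, had 10.79 and 10.91 against 11.14 and 10.95. In both genes the Salv CKO samples were below the controls, and Control 2 was closer to them than to Control 1. The differences were -0.21 ± 0.22 and -0.19 ± 0.22, and without Control 1 they were -0.07 and -0.10. The other Cflar probe gave 9.56 and 9.57 against 9.46 and 9.65, a difference of 0.01 ± 0.21. Birc3 was highest in Control 1, at 7.18 against 6.56 to 6.81, and its difference of -0.22 ± 0.29 was 0.05 without that sample. Xiap, the direct inhibitor of Casp9 and the executioners, spanned 9.90 to 10.08. It differed by -0.07 ± 0.21, and by 0.02 without Salv CKO 1.

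Of the factors released from mitochondria, Aifm1, a flavoprotein of the inner membrane, spanned 11.18 to 11.31 and differed by 0.05 ± 0.21. Endog, a mitochondrial nuclease that also sets the size of heart muscle cells, had levels of 11.69 and 11.47 against 11.67 and 11.79, a difference of -0.15 ± 0.22. Diablo, which antagonises the IAP proteins, lay just above the limit for dim probes, at a mean intensity of 30.3. It was lowest in Salv CKO 1 at 4.37, against 5.03 to 5.15 in the others, and its difference of -0.41 ± 0.30 was -0.08 without that sample.

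Fas, the death receptor, was lower in both Salv CKO samples by a small and even step. Its level was 6.61 and 6.70 against 6.89 and 6.85, and the nearest arrays of the groups both stood at 6.78 to the second decimal. The difference was -0.21 ± 0.21, with an interval of -0.76 to 0.33 (limma adjusted p = 0.998). It was -0.03 without normalization, where deposited intensities averaged 96.7 and 117 against 111 and 107. Apaf1, the core of the apoptosome, had levels of 9.40 and 9.77 against 9.82 and 9.56. Its difference was -0.11 ± 0.25, and 0.08 without Salv CKO 1.

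**Figure D3:**
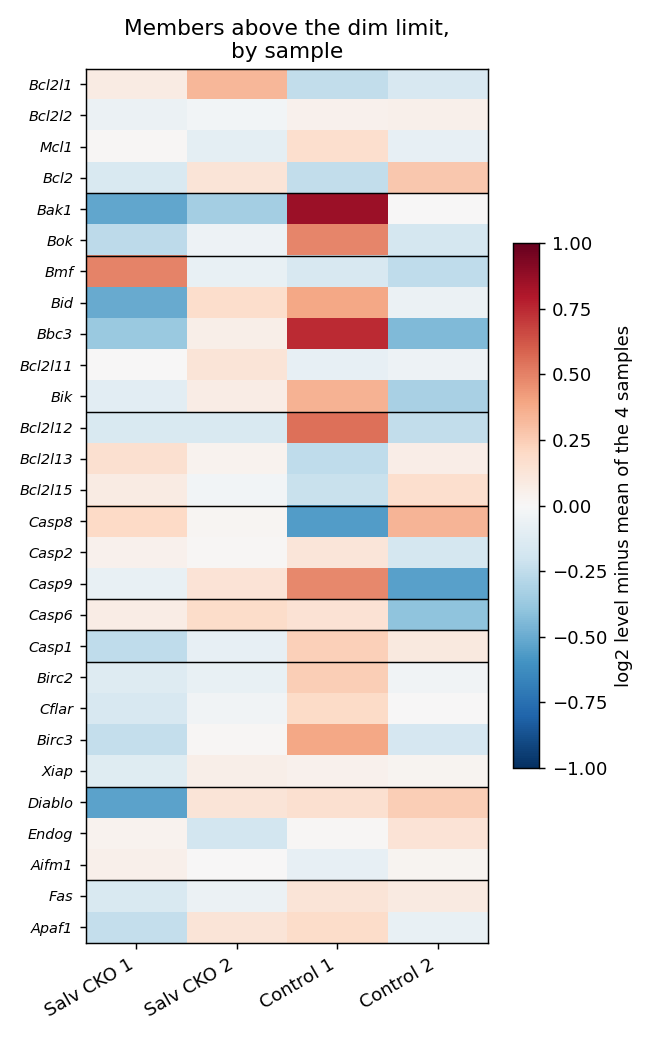
Level of the 28 members that were not dim in each sample, as log2 level minus the mean of the 4 samples; black lines part the role groups. Control 1 holds the strongest colours, such as Bak1, Bbc3, Bcl2l12, Bok and Casp9 high and Casp8 low, and Salv CKO 1 is low for Bak1, Bid and Diablo and high for Bmf.

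Across the family, single samples stood out. Control 1 was the highest sample for 15 of the 28 members that were not dim (53.6%, against 38.9% of probes that were not dim), and Salv CKO 1 was the lowest for 12 (42.9%, against 29.9%). In 8 members both extremes were controls (28.6%, against 22.3%), and in 5 of them Control 1 was the highest and Control 2 the lowest. The median gap between the controls was 0.285, and that between the Salv CKO samples 0.18, against 0.302 and 0.20 for all probes that were not dim. The family thus stood close to the array as a whole in its spread. In 22 of the 28 members the spread between samples of a group exceeded that between technical arrays (78.6%, against 77.6%).

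The direction of the family as a whole also rested on single samples. Of the 35 members, 13 had a positive difference and 22 a negative one, with a median of -0.081, beside -0.010 for all probes, of which 48.6% were positive. Without Salv CKO 1, 19 were positive and the median was 0.016. Without Control 1, 17 were positive and the median was -0.009. The other 2 samples moved it the other way: 12 were positive without Salv CKO 2 (median -0.164), and 11 without Control 2 (median -0.206). With 1 sample left out, the median of all probes ran from -0.039 to 0.001. With arrays centred on their medians, 8 were positive and the median was -0.243, beside -0.078 for all probes. Without normalization 14 were positive and the median was -0.054, while that of all probes was shifted to 0.111. For the members that were not dim, the 95% intervals reached from 0.54 to 1.23 on either side of the difference (median 0.66), and 19 of 28 intervals lay wholly between -1 and 1.

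**Figure D4:**
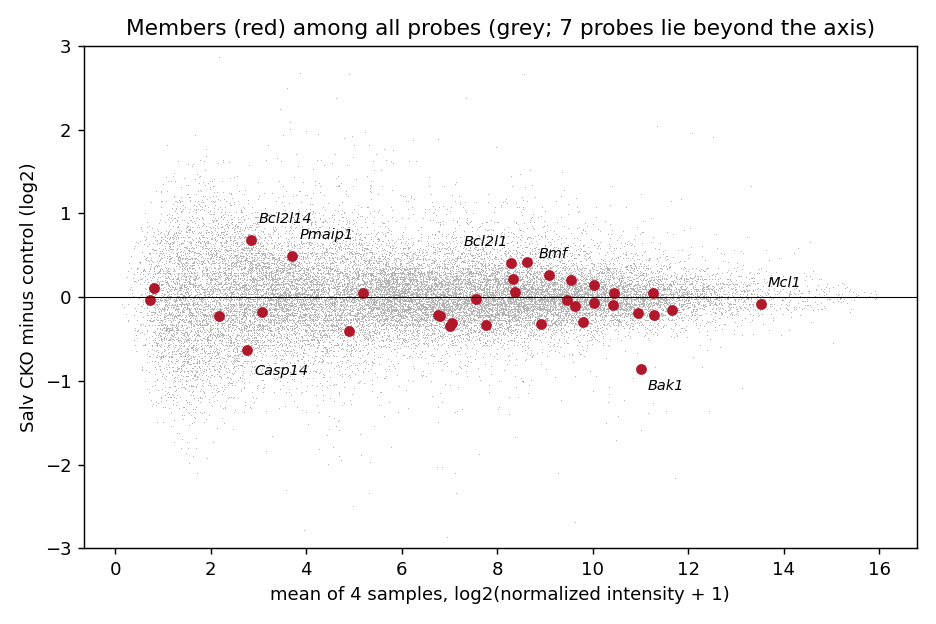
Difference of every probe against its mean level (grey) with the 35 members in red; 7 probes lie beyond the axis limit of 3. Members spread over the grey cloud from near 0 to 13.5, and Bak1 at -0.86 is the member farthest from 0.

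Further genes of cell death were read from fixed lists, each tested over all probes. None of 81 passed an adjusted p of 0.05 in limma, and 2 had an unadjusted p under 0.05 (3.97% of all probes did). Of all probes, 48.6% had a positive difference and 30.6% had groups that did not overlap. The counts of each list below are to be read beside these shares, and no list was tested as a whole. In death receptor signalling 5 of 14 were positive, and the groups did not overlap for 8 of 14 (57.1%). Fasl, the ligand of Fas, was dim, with deposited intensities of 7.00 and 6.67 against 8.33 and 11.3, and differed by -0.70 ± 0.23 (unadjusted p = 0.0312, limma adjusted p = 0.998). Tnfrsf1b, a receptor of tumour necrosis factor, had levels of 6.85 and 6.80 against 7.35 and 7.02.

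Among p53 and its targets 10 of 15 were positive, with a median of 0.105. The groups did not overlap for 5 of 15 (33.3%, against 30.6% of all probes). Of these, Cdkn1a, the p53-induced inhibitor of cyclin-dependent kinases, had levels of 10.97 and 10.91 against 10.69 and 10.63, a difference of 0.28 ± 0.21. The p53 targets Perp and Phlda3 differed by 0.13 ± 0.20 and 0.17 ± 0.22. Mdm2, the p53 target that feeds back on p53, lay the other way, at 10.31 and 10.22 against 10.73 and 10.39, a difference of -0.29 ± 0.23. These 4 genes were chosen after their values were seen. Sesn2, a stress-induced p53 target and the fifth of these genes, was dim and differed by 0.61 ± 0.29. Mdm4, a p53 inhibitor, was low in Control 1, at 2.39, where the other samples ran from 5.68 to 5.96, so its difference of 1.66 became -0.10 without Control 1. Fas, Bbc3 and Pmaip1, which p53 also induces, differed by -0.21, -0.31 and 0.49.

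Of the other IAP genes and their antagonists 6 of 7 were positive, and the groups did not overlap for 1 of 7 (14.3%). Birc5 (survivin), an IAP relative that acts in cell division, had levels of 9.69 and 9.18 against 8.25 and 8.82, a difference of 0.90 ± 0.33 (unadjusted p = 0.0442, limma adjusted p = 0.998). Its other probes differed by 0.60 and 0.25. Birc6, a large IAP protein, differed by 0.29 ± 0.31. Among caspase substrates and nucleases 4 of 10 were positive, and the groups did not overlap for 3 of 10 (30%). Lmnb1, a nuclear lamin cut by executioner caspases, differed by 0.80 ± 0.37. Cidea, a lipid droplet protein of brown fat related to the nuclease inhibitor Dffa, differed by -0.47 ± 0.24. The adipocyte markers had negative differences in 6 of 7, and their part in the Cidea value was not tested.

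In the list of BH3-only relatives and mitochondrial gate genes 8 of 21 were positive, and the groups did not overlap for 4 of 21 (19%). Opa1, which shapes the cristae that hold cytochrome c, was at 5.91 in Control 1 against 8.23 to 8.58 in the others, and its difference of 1.22 was -0.07 without Control 1. Bnip2, a binding partner of BCL2 proteins, differed by -0.29 ± 0.27. Pyroptosis and inflammasome genes were positive in 1 of 10 (48.6% of all probes were), with a median of -0.060. The groups did not overlap for 3 of 10 (30%), and the smallest unadjusted p in limma was 0.342. Several of the negative differences were very small, such as those of Nlrp1a (-0.00), Aim2 (-0.01) and Gsdme (-0.01). Nlrp1b, an inflammasome sensor, was dim and differed by -0.45 ± 0.42, and Ninj1, which ruptures the membrane of dying cells, by -0.15 ± 0.22. Necroptosis genes were positive in 2 of 4, and the groups did not overlap for 2 of 4 (50%). Tnfaip3, which restrains signalling from the tumour necrosis factor receptor, had levels of 7.50 and 7.75 against 7.91 and 7.88, and the dim gene Zbp1 differed by 0.50 ± 0.21.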

How the data were processed

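Gene expression was measured on 12 one-colour arrays of 4 heart samples. The authors' deposited values are intensities, whole numbers from -10 to 65474; some lie below 0, as after a background subtraction. The sources used here name no scanner, background method or normalization. Arrays were quantile normalized (limma 3.58.1, R 4.3.3), values below 0 set to the lowest positive value (0.0833), log2(value + 1) taken, and the 3 technical arrays of a sample averaged. Such differences understate changes of dim probes.

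Groups were compared by limma (lmFit, eBayes; two-sided; 2.60 prior and 2 residual degrees of freedom), with Benjamini-Hochberg adjustment over 26423 probes. The labels call the samples biological replicates without further origin, so p-values reflect only how these samples varied, which may be technical. The number of samples limits the precision.

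Probes were named from the platform annotation, updated through RefSeq (GRCm38.p6): 18213 matched by symbol, 2126 by synonym, 38 not at all and 6046 had no symbol. Members and lists were chosen with earlier results of these data known. Named with values were members with unadjusted p under 0.05, up to 3 per role with the smallest p, and up to 2 genes per pathway list; the remaining members are given too. Alternatives are given in the closing section. Figures used matplotlib 3.10.9.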

Additional observations from a re-analysis of the deposited data

How the results depend on the processing

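The count of members passing an adjusted p of 0.05 in limma was 0 in all settings, while over all probes it was 61 in the fit of all 12 arrays with a random sample effect, 2 with median centring, 14 without normalization and 0 in the other settings. The 1 member with an unadjusted p under 0.05 (Bcl2l14) became 0 without the dimmest 25% of probes, where it was not tested, 2 with the median of technical arrays (with Pmaip1; 3.96% of all probes), 2 at a pseudocount of 16 (Bak1 and Bcl2l1; 2.94% of all probes) and 3 in the fit of all 12 arrays (Bak1, Bcl2l1 and Casp1), or 8.57% of members against 8.33% of all probes. It was Bak1 alone (2.86% of members) with an intensity-dependent prior (3.02% of all probes) and with median centring (3.64% of all probes). The fit of all 12 arrays used 1 correlation between arrays of a sample, 0.538, for every probe. For a probe such as Bak1, the SD was 0.106 between technical arrays and 0.433 between samples of a group. For such probes that fit treats arrays as partly independent, so its p-values can be too small. With 1 sample left out the count ran from 0 to 5 (5 without Control 2, or 14.3% of members against 10.7% of all probes) and the median difference of the members from -0.206 to 0.016. That median was -0.243 with median centring.

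With the replicate block the count was 0 (2.81% of all probes). The main fit held no such block because nothing in the labels says that a number is shared between groups. The deviations of samples with the same number correlated at -0.253 over probes. A crossed block, chosen after seeing the data, gave 2 (Bak1 and Bcl2l14), or 5.71% of members against 5.85% of all probes, and 0 adjusted. The 4 settings that move the difference of a single probe with all samples kept are median centring, no normalization, a pseudocount of 16 and the median of technical arrays; over the 35 members they changed the sign of 10 of 140 values. These were, with median centring, Casp2 (-0.13), Casp9 (-0.06), Aifm1 (-0.15), Bcl2l11 (-0.04) and Casp12 (-0.32), without normalization Bcl2 (0.12), Hrk (0.13) and Casp12 (-0.13), Casp12 at a pseudocount of 16 (-0.01) and Bcl2l15 with the median of technical arrays (-0.05). With 1 sample left out, 27 of 140 values changed sign, in 20 of the 35 members: Mcl1, Bcl2, Hrk, Bbc3, Bik, Bad, Bcl2l15, Xiap and 12 more, whose ranges were -0.39 to 0.03 (Bcl2l10), -0.65 to 0.01 (Bok), -0.67 to 0.01 (Bid), -0.70 to 0.09 (Bcl2l12), -0.23 to 0.67 (Casp8), -0.09 to 0.20 (Casp2), -0.45 to 0.58 (Casp9), -0.01 to 0.54 (Casp6), -0.20 to 0.41 (Casp12), -0.50 to 0.05 (Birc3), -0.01 to 0.11 (Aifm1) and -0.30 to 0.08 (Apaf1). The causes were not tested. Dim members lie too close to background for their differences to be read.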
